A study of Homo sapiens with 15 samples.

Results

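Replication-dependent histone genes were examined in VCaP prostate cancer sublines by bulk RNA sequencing. The members are all genes whose symbol begins with H1-, H2AC, H2BC, H3C or H4C followed by a number. The rule found 88 members among the 58381 genes of the count tables. VCaP is an established androgen-sensitive prostate cancer cell line. The 15 libraries came from 5 sublines with 3 replicates each. VCaP-T cells were kept for 7 months in RPMI with charcoal-treated serum and 10 nM testosterone. VCaP-CT cells were derived from VCaP-T by a further 10 months of culture, at 0.1 nM testosterone by the treatment protocol, although the sample labels give 10 nM for that period. VCaP-CT-ER cells were derived from VCaP-CT by growth in 10 µM enzalutamide, an androgen receptor antagonist, until they grew in its presence. VCaP-CT-BR cells were derived from VCaP-CT with bicalutamide, an older androgen receptor antagonist, and their labels also name enzalutamide after bicalutamide insensitivity. VCaP-CT-BR-ER cells were the multiresistant line reached by bicalutamide and then enzalutamide. Each subline is a single derivation, so a difference between sublines cannot be told apart from a difference between those derivations. Values in derivation order follow the order in which the sublines are described here. The labels do not say whether replicates were separate cultures, and p-values then measure only the spread between these libraries.

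As background, replication-dependent histone genes supply the core histones H2A, H2B, H3 and H4 and the linker histone H1 that package newly copied DNA. They lie in gene clusters, the largest on chromosome 6, and are transcribed mostly in S phase. Their transcripts usually end in a conserved stem-loop, which SLBP binds, in place of a poly(A) tail. The symbol rule also takes in linker histones outside the clusters that are known to be made outside S phase, among them H1-10. How the RNA was selected for these libraries, with or without a poly(A) step, is not given in the sources used here. In bulk RNA, fewer cells expressing a gene and less RNA per cell cannot be told apart.

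The stem-loop is printed here because it separates the members with a replication-dependent 3′ end from the others, and because the level of a member in these libraries went with how its gene model continues beyond it. The 16 bases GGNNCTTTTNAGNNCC, which allow a stem of 6 base pairs and a loop of 4 bases, were searched on the transcribed strand within 200 bases after the stop codon. They were found in 62 of the 70 protein-coding members and in 70 of 19924 coding genes in all (0.351%). The match began between 23 and 63 bases after the stop codon. The most frequent form stood in 36 members of the H1, H2A, H2B and H3 families and in no H4 gene, whereas 10 H4 genes shared a form with a C-G pair in its place. The other forms differed in the loop or in the stem. In the lines below the capitals mark the loop, and all are read from GRCh38.
H1-2, minus strand of chr6:26055744-26055759: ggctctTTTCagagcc
H4C8, minus strand of chr6:26285131-26285146: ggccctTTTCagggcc
H2BC12, minus strand of chr6:27146366-27146381: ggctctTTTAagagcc
H4C9, plus strand of chr6:27139654-27139669: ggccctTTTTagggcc
H2AC11, plus strand of chr6:27133515-27133530: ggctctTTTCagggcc
The loop ending in A stood in 9 members, among them H2BC12, and the H4 form with a loop of T alone stood in 4 H4 genes, among them H4C9. The form of H2AC11, whose stem holds an unequal pair of arms, stood in 1 member. H3C6, H2BC10 and H4C13 were the 3 coding members inside the clusters without a match. H1-10, outside the clusters, held none.

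Of the 88 members, 71 were detected, with a count in 1 or more libraries, and 17 were not. A count in all 15 libraries was found for 37 members. The filter on low counts left 38 members for testing, so that 33 were detected but not tested. The members comprised 70 protein-coding genes, of which 36 were tested, 17 pseudogenes, of which only H2BC20P was tested, and the antisense RNA H1-10-AS1. The chromosome 6 cluster held 64 members with 28 tested, chromosome 1 held 14 with 6 tested, and 10 lay elsewhere with 4 tested. Among the coding members inside the clusters, 14 of 18 H2B genes were tested, as were 7 of 15 H2A genes, 6 of 14 H4 genes, 3 of 6 H1 genes and 3 of 11 H3 genes. H1-7, H1-9P and H2BC12L, outside the clusters, had 1 count or fewer in every library, and H1-8, H1-8P1 and H1-8P2 had none. H3C6 and H1-3 reached the filter's level in libraries of VCaP-T only, so their part in a comparison with VCaP-T follows from the filter.

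The counting itself set what could be seen of some members. Reads with more than 1 alignment and reads over more than 1 gene were not counted. In H4C12, H4C14, H4C15, H3C14 and H3C15 every 75-base window of the exons recurs within the chromosome 6 and 1 clusters. Copies outside these clusters were not searched. In H2AC15, H3C4 and H2AC7 over 90% of exon bases lie in another annotated gene. A low count of these 8 genes is therefore uncertain as a level. Of the members named below, H2AC14 had 82.4% and H2AC13 had 60.1% of their windows repeated within the clusters. H1-10 shared 22.9% of its exon bases with H1-10-AS1 on the opposite strand, and counting without regard to strand cannot divide the reads between them. For H3C2, H3C3, H2AC18 and H2AC19 the identifier has changed between annotation releases, so they did not enter by symbol. The genes at their positions held 141, 21, 1 and 2 counts over all libraries.

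Members whose exon model ran on past the stem-loop passed the filter for testing more often. Of the 62 members with the stem-loop, 24 had over 100 exon bases annotated beyond it, and 19 of these were tested, with a median of 775 counts over the 15 libraries and a median level of 0.692 FPKM, which is fragments per kilobase of exon at a library size scaled to 1000000. The other 38 ended at or near the stem-loop, and 14 of them were tested, with medians of 39.5 counts and 0.154 FPKM. The filter acts on counts, and a longer model has more exon to collect them, whereas FPKM divides by exon length. How much of the difference in counts and in passing the filter follows from length was not tested. The polyadenylation signal AATAAA stood in the last 50 annotated bases of 13 of the 24 longer models and of 1 of the 38 shorter ones, against 61.3% of the other tested coding genes. H1-10 carried it. H1-2 and H2BC12, with models that stop before the stem-loop, had the highest levels of all stem-loop members. Whether the counted fragments came from transcripts that pass the stem-loop was not tested.

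**Figure D1:**
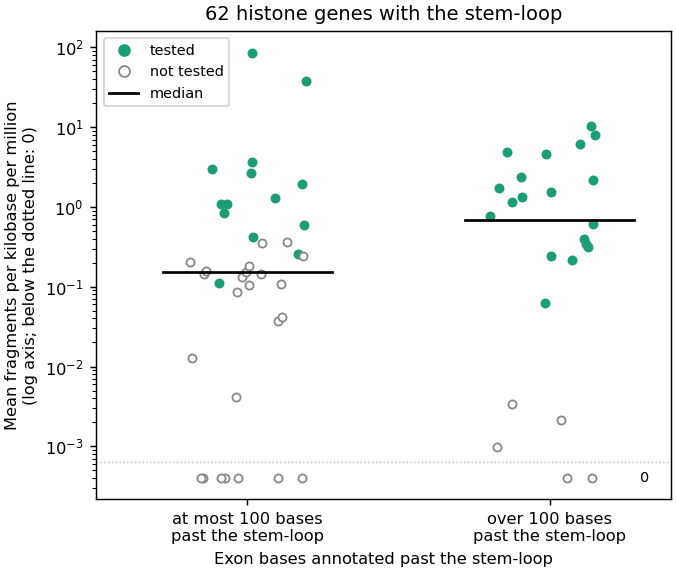
Mean level over the 5 sublines (FPKM, log axis) of the 62 members with the stem-loop, by whether their exon model runs over 100 bases past it. Filled points were tested, open points were not, points below the dotted line are at 0, and the black lines mark the medians of 0.154 and 0.692.

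Levels per kilobase differed widely between members. Among the members described here, the mean over the 5 sublines was highest for H1-2 at 86.2 FPKM, followed by H1-10 at 64.7 and H2BC12 at 38.3 FPKM. Next came H2AC25 at 10.5, H4C9 at 7.97, H2AC6 at 6.13, H2BC5 at 4.95, H3C10 at 4.60, H2AC13 at 3.67, H2AC8 at 2.95 and H2BC17 at 2.68 FPKM.

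**Figure D2:**
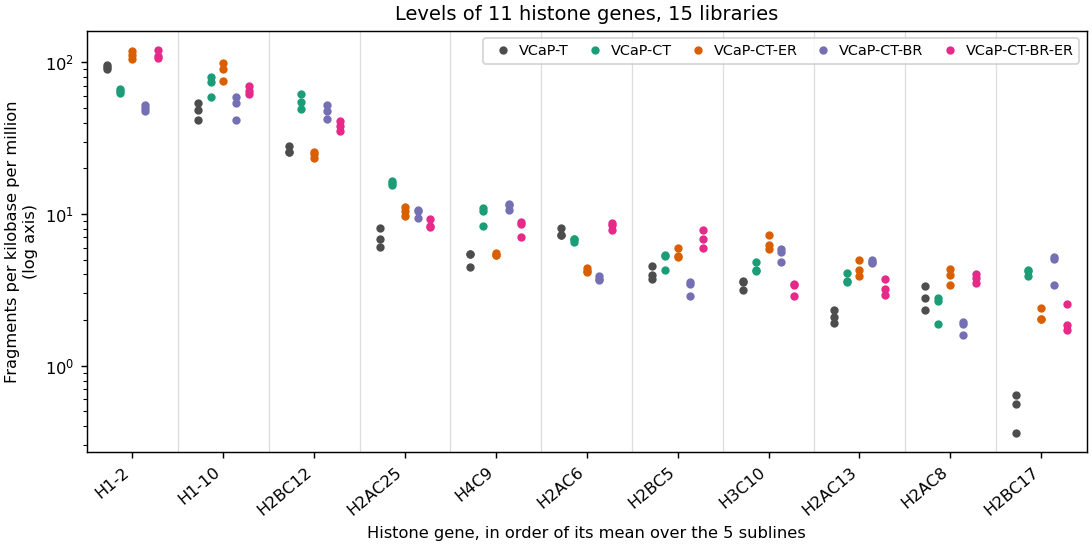
Level of 11 members with high means, in FPKM on a log axis, with 3 points per subline and 1 point per library. H1-2, H1-10 and H2BC12 stand above the others, and H2BC17 is lowest in the 3 VCaP-T libraries.

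The summed level of the members and that of the S-phase genes had different orders over the sublines. The 88 members summed to 729 ± 16, 620 ± 32, 825 ± 22, 354 ± 22 and 431 ± 17 CPM, which is counts at a library size scaled to 1000000, in derivation order (SD, n = 3 libraries). Coding members inside the clusters made up only 134 ± 3.5, 150 ± 1.8, 153 ± 8.2, 124 ± 5.6 and 164 ± 7.5 CPM of this. Most of the 88-member sum, and most of its variation, thus came from other members, chiefly linker histones outside the clusters. The 62 stem-loop members summed to 133 ± 3.7, 153 ± 1.9, 157 ± 8.6, 125 ± 5.8 and 166 ± 7.7 CPM. Without H1-2 the stem-loop members summed to 73.1 ± 2.4, 111 ± 0.58, 85.1 ± 3.9, 93.2 ± 4.5 and 94.2 ± 4.5 CPM, so that VCaP-CT was highest and VCaP-T lowest. A fixed list of 48 S-phase replication genes summed to 2695 ± 53, 3618 ± 80, 4078 ± 36, 4224 ± 46 and 4325 ± 43 CPM, the lowest in VCaP-T. With H1-2 the stem-loop sum had its lowest mean in VCaP-CT-BR, where the S-phase sum was above that of VCaP-T, VCaP-CT and VCaP-CT-ER. Its libraries, at 119 to 131 CPM, overlapped those of VCaP-T at 130 to 137 CPM. This lowest place rests on H1-2, since VCaP-CT-BR was not the lowest without it. These sums are descriptions of a chosen set and have no test.

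**Figure D3:**
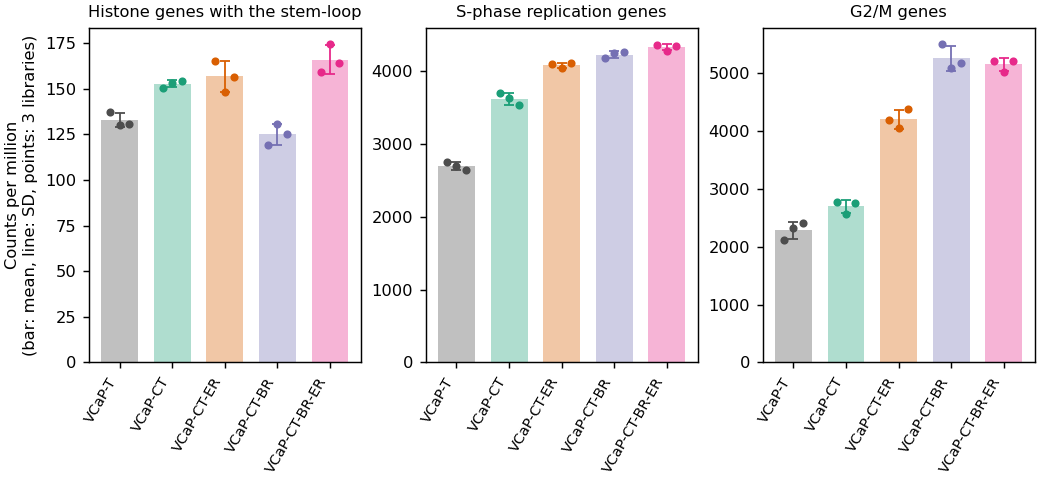
Summed level in CPM of the 62 stem-loop members, of 48 S-phase replication genes and of 35 G2/M genes, with bars for the mean of 3 libraries, lines for the SD and a point per library. The S-phase panel rises from 2695 at its left to 4325 at its right, whereas the stem-loop panel has its lowest bar, 125, for VCaP-CT-BR. The points of that bar overlap those of VCaP-T, and without H1-2 the sum is lowest in VCaP-T.

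The comparison of VCaP-CT with VCaP-T asks how the members differed once cells had grown at low testosterone. H2BC17, H4C16, H2AC25, H2BC12 and H2BC15 were higher in VCaP-CT, while H2BC9, H2AC14 and the linker histone H1-2 were lower. Of the 38 tested members, 18 were higher and 7 lower at an adjusted p under 0.05 (edgeR quasi-likelihood test), where 65.3% of all tested genes were called, 33.1% higher and 32.2% lower. The 7 include H3C6 and H1-3, which were tested only through their VCaP-T libraries, and without them 18 of 36 members were higher and 5 lower. The median log2 fold change was 0.33 over the tested members and 0.03 over all genes. Coding H2B genes of the clusters made up 7 of the rises and 2 of the falls, and the H2B pseudogene H2BC20P rose as well.

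H4C16, a histone H4 gene on chromosome 12 (chr12:14767999-14771131, minus strand) that carries the stem-loop, was at 0.358, 0.245 and 0.282 CPM among VCaP-T libraries, against 2.35, 2.71 and 2.57 CPM among those of VCaP-CT. The groups did not overlap, and the log2 fold change was 3.10 ± 0.20 (SE; adjusted p = 2.3e-11). H2BC17, an H2B gene at chr6:27893463-27893843, rose from 0.138, 0.245 and 0.212 CPM to 1.63, 1.59 and 1.48 CPM, by 2.96 ± 0.28 on the log2 scale. H2BC12, the H2B gene with the highest level (chr6:27146418-27146798, minus strand), rose from 9.72, 9.72 and 10.7 CPM to 20.7, 23.4 and 18.8 CPM, by 1.06 ± 0.09. H2BC15 rose by 1.25 ± 0.09, H2AC25 by 1.20 ± 0.10 and H1-4, a linker histone gene, by 1.25 ± 0.36.

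H2BC9, another H2B gene of the chromosome 6 cluster, was at 2.31, 2.80 and 2.61 CPM in VCaP-T, and the VCaP-CT libraries held 0.272, 0.256 and 0.196 CPM. Its log2 fold change was -3.40 ± 0.30 (adjusted p = 2.1e-09). H2AC14 had 128 counts over the 3 VCaP-T libraries and 3 over the VCaP-CT libraries, a ratio of 38.4 (95% exact interval from 12.9 to 189, counting error only). H3C6, an H3 gene, had 214 and 3 counts and H1-3, a linker histone gene, had 35 and 1, given here as a description since the filter kept both through VCaP-T alone. H1-2 fell from 61.5, 59.7 and 57.8 CPM to 40.1, 41.3 and 43.0 CPM, with a log2 fold change of -0.52 ± 0.06.

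In the step from VCaP-CT to VCaP-CT-ER, which asks what enzalutamide resistance brought, H1-2 rose and H2BC12, H2BC15 and H4C9 fell. Of the 38 tested members, 15 were higher and 14 lower, where 60.9% of all tested genes were called, 29.6% higher and 31.2% lower. The comparison shares the VCaP-CT libraries with the previous one. H1-2 was at 76.6, 67.3 and 71.5 CPM in VCaP-CT-ER, above all VCaP-CT libraries, with a log2 fold change of 0.79 ± 0.06 (adjusted p = 2.4e-10). H2BC12 was at 9.73, 9.44 and 8.94 CPM, each below the VCaP-CT libraries, with a log2 fold change of -1.16 ± 0.09 (adjusted p = 5.5e-10). H2BC15 fell by 1.16 ± 0.09 on the log2 scale, H4C5 by 1.15 ± 0.35, H2BC17 by 0.93 ± 0.20 and H4C9 by 0.88 ± 0.11. H2AC14 had 108 counts over the VCaP-CT-ER libraries, 27.4 times the VCaP-CT level (9.15 to 135). H4C3 rose by 1.45 ± 0.35 and H2BC26 by 0.87 ± 0.26.

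In the step from VCaP-CT to VCaP-CT-BR nearly all called members fell. Of the 38 tested members, 3 were higher and 16 lower, where 53.2% of all tested genes were called, 26.1% higher and 27.0% lower. With scaling at the 75th percentile the same counts were 1 and 17. The median log2 fold change was -0.38 over the tested members and -0.02 over all genes. H1-4 fell by 1.45 ± 0.37 on the log2 scale, H2BC4 by 0.95 ± 0.20, H2AC6 by 0.84 ± 0.08, H2BC21 by 0.82 ± 0.14, H4C16 by 0.78 ± 0.15 and H1-2 by 0.38 ± 0.06. H2BC15, H3C10 and H2AC13 were the 3 that rose, by 0.21 ± 0.08, 0.30 ± 0.11 and 0.37 ± 0.14. Without VCaP-CT-BR replicate 2 none of the 3 was called, with 15 members lower, and without VCaP-CT-BR replicate 3 none was called, with 14 lower. All 3 lie in the part of the chromosome 6 cluster at 27 Mb. H2BC12 changed by -0.22 ± 0.09.

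Enzalutamide selection of VCaP-CT-BR, which gave VCaP-CT-BR-ER, divided the chromosome 6 cluster by position. Its tested members lie in a block from 26026815 to 26285638 and a block from 27125897 to 27893843. In the block at 26 Mb, 9 of 16 tested members were higher and 1 was lower, and in the block at 27 Mb none of 12 was higher and 7 were lower. Over all 38 tested members 13 were higher and 9 lower, where 42.9% of all tested genes were called, 21.2% higher and 21.7% lower. The blocks were set side by side after their values had been seen, and their difference has no test. The 9 that rose were H4C2, H1-2, H2BC4, H2AC6, H1-4, H2BC5, H2BC8, H2AC8 and H4C8, and H2BC9 was the member of the block that fell. The 7 that fell in the other block were H2BC11, H4C9, H2BC12, H2AC13, H3C10, H2BC15 and H2BC17.

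The same blocks stood apart in the step from VCaP-CT to VCaP-CT-BR, with 0 higher and 10 lower of 16 in the former and 3 higher and 1 lower of 12 in the latter, but both comparisons share the VCaP-CT-BR libraries. In the comparison of VCaP-CT-BR-ER with VCaP-CT-ER, which shares VCaP-CT-BR-ER, the counts were 6 higher and 1 lower in the former and 3 higher and 5 lower in the latter. The blocks did not stand apart in the step from VCaP-CT to VCaP-CT-ER, which shares no library with the step to VCaP-CT-BR-ER. There 4 members were higher and 6 lower in the 26 Mb block, and 4 higher and 5 lower in the 27 Mb block. In VCaP-CT against VCaP-T the counts were 6 higher and 4 lower in the 26 Mb block and 7 and 1 in the 27 Mb block. Of the few other tested genes of the cluster, 4 of 11 in the 26 Mb block were higher and 3 lower after enzalutamide selection of VCaP-CT-BR. In the 27 Mb block 1 of 8 was higher and 4 were lower, and between the blocks none of 7 was higher and 4 were lower.

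H2AC6, an H2A gene at chr6:26124145-26139116, was at 6.14, 6.46 and 6.25 CPM before this step and at 14.6, 13.2 and 14.1 CPM after it. The groups lay far apart, with a log2 fold change of 1.15 ± 0.08 (adjusted p = 9.1e-11). H1-2 was at 30.7, 33.3 and 31.9 CPM and at 70.2, 76.7 and 68.7 CPM, with a log2 fold change of 1.17 ± 0.06 (adjusted p = 1.7e-12). H1-4 rose by 1.68 ± 0.35, H2BC5 by 1.07 ± 0.13 and H2BC21, an H2B gene on chromosome 1, by 1.13 ± 0.13. In the other block, H2BC15 was at 11.7, 12.3 and 11.6 CPM and at 5.34, 6.32 and 5.72 CPM, with a log2 fold change of -1.03 ± 0.09 (adjusted p = 6.1e-09). H2BC17 fell by 1.16 ± 0.21 on the log2 scale and H3C10, the H3 gene with the highest level, by 0.76 ± 0.11.

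**Figure D4:**
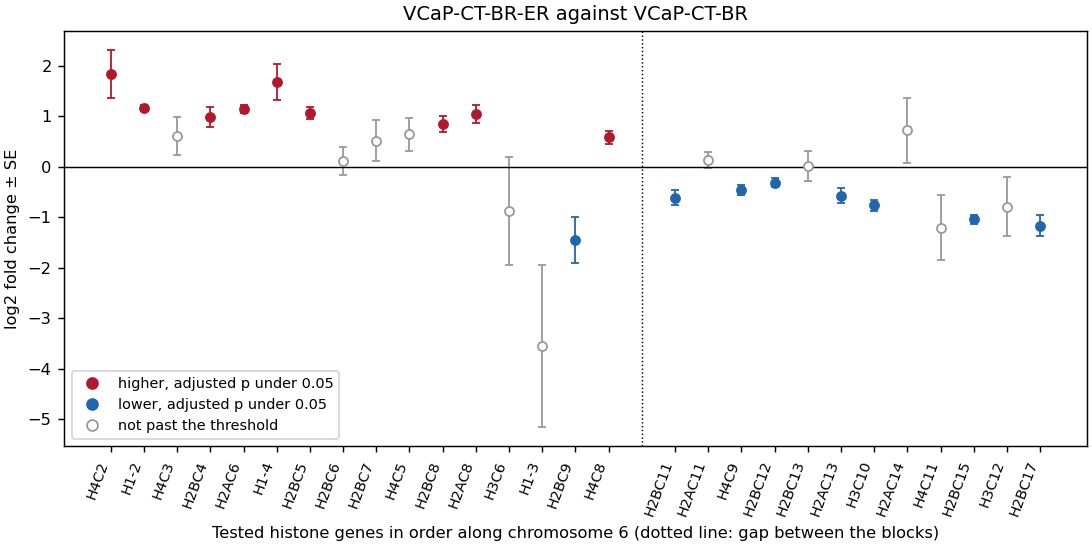
Log2 fold change ± SE in VCaP-CT-BR-ER against VCaP-CT-BR of the 28 tested members of the chromosome 6 cluster, in order along the chromosome and with equal spacing. Filled red points (9, all left of the dotted line) were higher, filled blue points (1 left and 7 right of it) were lower, and open points did not pass the threshold.

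Between the enzalutamide-resistant sublines themselves, VCaP-CT-BR-ER against VCaP-CT-ER, 10 of the 38 members were higher and 12 lower, where 45.9% of all tested genes were called, 23.3% higher and 22.7% lower. H1-2 had nearly the same level in both, 68.7 to 76.7 against 67.3 to 76.6 CPM, with a difference of 0.00 ± 0.06. H2AC6 was higher by 0.98 ± 0.07, H2BC20P by 0.89 ± 0.10, H2BC4 by 0.87 ± 0.19 and H1-4 by 1.05 ± 0.31. H2AC20 fell by 1.17 ± 0.25 on the log2 scale, H2BC26 by 1.29 ± 0.27, H2BC13 by 1.02 ± 0.26 and H3C10 by 0.99 ± 0.11.

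The changes of the members over the enzalutamide steps from the 2 backgrounds were compared as a difference of the steps within the same fit. The VCaP-CT-BR labels also name enzalutamide, so it is not known whether those cells had met the drug before. Of the 38 members, 14 had a more positive change from VCaP-CT-BR than from VCaP-CT and 5 a more negative one, where 49.7% of all tested genes were called, 25.2% higher and 24.5% lower. H2AC6 was at 10.9 to 11.4 CPM in VCaP-CT and lower, at 6.87 to 7.30 CPM, in VCaP-CT-ER. By contrast it was at 6.14 to 6.46 CPM in VCaP-CT-BR and higher, at 13.2 to 14.6 CPM, in VCaP-CT-BR-ER. The difference between its changes was 1.82 ± 0.11 on the log2 scale (adjusted p = 1.3e-11). H2BC4, its neighbour, had a difference of 1.82 ± 0.27, H1-4 of 2.5 ± 0.48 and H4C2 of 2.65 ± 0.62. H3C10 showed the opposite pattern. It went up from 5.23 to 5.95 CPM to 7.25 to 8.93 CPM in the former step and down from 6.01 to 7.26 CPM to 3.55 to 4.26 CPM in the latter, a difference of -1.30 ± 0.15 (adjusted p = 5.5e-07). A change of at least 2-fold beside the adjusted p was found for 16, 8, 4, 10 and 7 members over the 5 comparisons in the order described and for 8 in the difference of the steps, where 20.8%, 17.5%, 9.96%, 7.98%, 9.74% and 15.8% of all tested genes were called in this way. For H4C16 the difference of 0.05 ± 0.20 did not pass the threshold, nor did that of 0.02 ± 0.17 for H1-10.

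**Figure D5:**
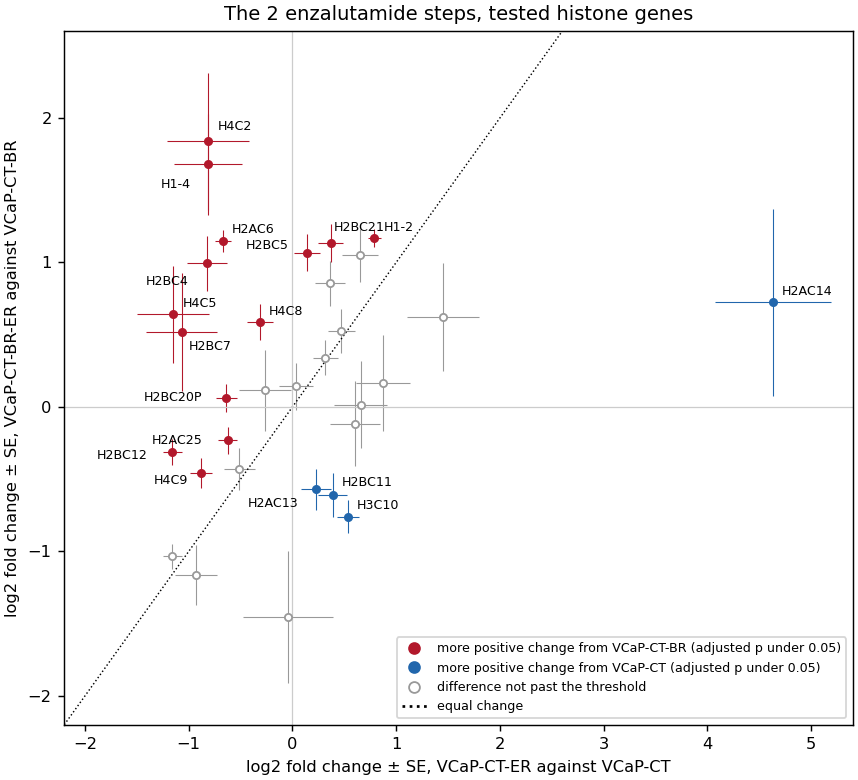
Log2 fold change ± SE from VCaP-CT to VCaP-CT-ER (horizontal) and of the same step out of VCaP-CT-BR (vertical) of 32 tested members whose average log2 CPM reached -1 or whose difference was called. The 14 red points lie above the dotted line of equal change and the 4 blue points below it.

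Across the 4 derivation steps, 10 of the 38 tested members were called in every step, where 16.5% of all tested genes were. They include H1-10, H1-2, H1-4, H2BC4, H2BC12, H2BC15, H2BC21, H3C10 and H4C16. H1-10, which has no stem-loop, had ranges of 63.0 to 81.1, 88.4 to 120, 113 to 149, 63.0 to 89.2 and 93.5 to 105 CPM over 3 libraries in derivation order. Its replicates overlapped between VCaP-CT and both VCaP-CT-ER and VCaP-CT-BR, and its changes were 0.56, 0.32, -0.45 and 0.34 with an SE of 0.12. The antisense RNA H1-10-AS1 changed by -0.51 ± 0.15 in the step to VCaP-CT-ER, where H1-10 rose.

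H2A and H2B genes of the clusters often lie head to head, with a short shared region between their start sites. There were 11 such pairs with at most 500 bases between the annotated starts, and the regions spanned 218 to 330 bases. Both genes were tested in 6 pairs. In the 24 combinations of pair and derivation step, both partners rose in 4, both fell in 2, they went in opposite directions in 2, a single partner passed the threshold in 12 and neither did in 4. Of all tested genes, 65.3%, 60.9%, 53.2% and 42.9% were called in these steps. Whether partners moved together more often than unpaired genes was not tested. The partners differed in level as well. H2BC12 stood at 38.3 FPKM and its partner H2AC12 at 0.245 FPKM, and H2AC25 at 10.5 FPKM and its partner H2BC26 at 0.244 FPKM.

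The regions of a pair that moved together and of the pair that moved apart are shown because their partners are read from the same stretch of DNA. Capitals mark matches on either strand to the CCAAT box, to the TATA box as TATAAA and to the octamer as ATTTGCAT, motifs known from core histone promoters. The regions are read from the plus strand of GRCh38 and hold no annotated exon of the pair.
H2BC4/H2AC6, chr6:26123927-26124144: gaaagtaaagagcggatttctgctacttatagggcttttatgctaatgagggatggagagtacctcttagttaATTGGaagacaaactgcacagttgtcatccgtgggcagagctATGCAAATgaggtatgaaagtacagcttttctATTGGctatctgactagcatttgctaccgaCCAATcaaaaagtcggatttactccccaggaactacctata
H2AC25/H2BC26, chr1:228457874-228458106: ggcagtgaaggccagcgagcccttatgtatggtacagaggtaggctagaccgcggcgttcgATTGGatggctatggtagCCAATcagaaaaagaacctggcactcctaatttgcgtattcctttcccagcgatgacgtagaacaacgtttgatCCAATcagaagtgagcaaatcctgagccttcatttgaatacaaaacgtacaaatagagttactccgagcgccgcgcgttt
Each region held 3 matches to CCAAT and none to TATAAA, and the octamer ATTTGCAT was matched in the region of H2BC4/H2AC6 and not in that of H2AC25/H2BC26. CCAAT was matched in all 11 regions, TATAAA in 8 and the octamer in 9. The region of H2BC13/H2AC13 also lacked the octamer, and its partners did not both pass the threshold in any derivation step. Whether a motif goes with the movement of partners was not tested.

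H2BC4 and H2AC6 both fell in VCaP-CT-ER, by 0.82 ± 0.19 and 0.67 ± 0.08 on the log2 scale, both fell in VCaP-CT-BR and both rose in VCaP-CT-BR-ER. Only in VCaP-CT against VCaP-T did they part, with 0.98 ± 0.20 for H2BC4 and -0.16 ± 0.07 for H2AC6, the latter not past the threshold. H2AC25 rose in VCaP-CT by 1.20 ± 0.10 while H2BC26 changed by -1.0 ± 0.26, and in VCaP-CT-ER H2AC25 changed by -0.62 ± 0.09 while H2BC26 rose by 0.87 ± 0.26. H2BC26 was at 1.07, 0.789 and 0.918 CPM in VCaP-T, against 0.362, 0.541 and 0.475 CPM in VCaP-CT, so its libraries did not overlap although the level is low.

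Over the promoters of RefSeq on GRCh38, from 250 bases before to 50 bases after the start, sequences were found for 59 of the 64 coding members inside the clusters. CCAAT on either strand was present in all 6 H1, 14 H2A, 18 H2B and 9 H3 promoters and in 3 of 12 H4 promoters, against 35.7% of all promoters of that length. The octamer ATTTGCAT was present in 11 of 14 H2A and 14 of 18 H2B promoters, in 1 H3 promoter and in no H1 or H4 promoter, against 1.80% of all. The regions between head-to-head H2A and H2B genes span only 218 to 330 bases, so the windows of such partners overlap. A match there can count for both genes, and the H2A and H2B counts are not separate observations. TATAAA was present in 38 of the 59, against 12% of all. The octamer was thus matched in most H2A and H2B promoters and in none of the H1 and H4 promoters in these windows.

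Genes that act on histone transcripts and proteins were counted from fixed lists. Of 26 genes of histone mRNA 3′ processing, all tested, 8 were higher and 8 lower in the step to VCaP-CT, 14 and 3 in that to VCaP-CT-ER, 12 and 3 in that to VCaP-CT-BR, and 7 and 3 in that to VCaP-CT-BR-ER. Among all tested genes, 65.3%, 60.9%, 53.2% and 42.9% were called in these steps. The shares called higher were 33.1%, 29.6%, 26.1% and 21.2%, and those called lower 32.2%, 31.2%, 27.0% and 21.7%. SLBP, the stem-loop binding protein, changed by -0.05 ± 0.05, 0.62 ± 0.05, 0.51 ± 0.05 and -0.06 ± 0.05 in these steps. It rose in VCaP-CT-BR, the step in which 16 members fell. CASP8AP2, a component of the histone locus body, rose by 0.83 ± 0.07 in VCaP-CT-BR and fell by 0.69 ± 0.07 in VCaP-CT-BR-ER.

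Of 18 tested genes of histone gene transcription, 9 were higher and 2 lower in the step to VCaP-CT, and the other steps in the same order gave 10 and 5, 10 and 2, and 6 and 5. For this list and those below, the shares called among all tested genes were again 65.3%, 60.9%, 53.2% and 42.9%. NPAT, the coactivator of histone genes, rose by 0.40 ± 0.08 in VCaP-CT-ER and by 0.46 ± 0.08 in VCaP-CT-BR. Of 24 tested genes of histone chaperones and import, 16 were higher and 4 lower in the step to VCaP-CT, and the other steps in the same order gave 9 and 7, 13 and 2, and 7 and 3. ASF1B, a chaperone of H3 and H4, rose by 1.12 ± 0.05 in VCaP-CT-ER, and NASP, which binds linker and core histones, by 0.83 ± 0.05 in VCaP-CT. Of 12 tested replication-independent variants, a list that overlaps the members, 6 were higher and 4 lower in the step to VCaP-CT, and the other steps in the same order gave 7 and 1, 3 and 5, and 5 and 2. H2AZ1, the gene of an H2A variant, rose by 0.51 ± 0.05, 0.65 ± 0.05 and 0.89 ± 0.05 in the steps to VCaP-CT, VCaP-CT-ER and VCaP-CT-BR. H2AX, the variant phosphorylated at DNA breaks, rose by 0.67 ± 0.10 in VCaP-CT-ER, and H3-3B, a gene of the H3.3 variant, fell by 0.59 ± 0.04 in VCaP-CT. The list of other histone genes outside the naming rule held 9 genes, of which 4 had an identifier and none was tested.

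The cell cycle lists were counted in the same way. The shares called among all tested genes were 65.3%, 60.9%, 53.2% and 42.9% over the 4 derivation steps. Of the 48 S-phase genes, 34 were higher and 4 lower in the step to VCaP-CT, and the other steps in the same order gave 29 and 4, 33 and 3, and 23 and 5. Of the 35 G2/M genes, 22 were higher and 4 lower in the step to VCaP-CT, and the other steps in the same order gave 30 and 1, 35 and 0, and 6 and 11. Of 19 tested genes of cell cycle exit and differentiation, a list that overlaps the members, 5 were higher and 9 lower in the step to VCaP-CT, and the other steps in the same order gave 14 and 2, 11 and 4, and 8 and 5.

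All 15 libraries lay nearest to another library of their own subline. All 10 prostate luminal markers were at 1 CPM or more in every library. Of 19 basal, stromal, endothelial and immune markers, 2 were at 0 and 11 stayed below 1 CPM in every library, and in derivation order their sum was 98.0 to 107, 22.6 to 23.7, 187 to 218, 26.3 to 28 and 218 to 251 CPM. A single gene made up most of the sum in both enzalutamide-resistant sublines. LUM, which encodes the extracellular matrix proteoglycan lumican, had means of 0.757, 6.24, 196, 23.5 and 236 CPM in derivation order, and LYZ, the lysozyme gene, had a mean of 52.7 CPM in VCaP-T and below 1 CPM in the other sublines. Of the 9 markers tested, 3 were higher and 6 lower in the step to VCaP-CT-ER, where 60.9% of all tested genes were called. The 6 were KRT14, COL1A1, ACTA2, PECAM1, VWF and LYZ. The part of these markers in the members' changes was not tested.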

How the data were processed

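The authors sequenced RNA from 5 VCaP sublines on the Illumina HiSeq 3000, aligned paired reads to GRCh38 with STAR 2.5.4b and deposited raw fragment counts per gene from featureCounts 1.6.2 on GENCODE release 28. Per the file headers, counting ignored strand, multiple alignments and fragments over several genes. Symbols came from GENCODE release 44 by identifier. Library totals were 33665716 to 46935279 counts, so that 3 counts, the floor, are 0.0621 to 0.0906 CPM. Intervals and floors cover counting error only.

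The members and lists were chosen with earlier results of these data known. Counts were tested with edgeR 4.0.16 in R 4.3.3 (filterByExpr at a minimum count of 10, TMM, 1 term per subline over 15 libraries, quasi-likelihood F tests, Benjamini-Hochberg adjustment over 19621 genes, threshold 0.05). Fold changes are log2 with SE. CPM used TMM-scaled library sizes, and FPKM divided them by exon length. Exact intervals of count ratios are Clopper-Pearson. Replicates of a subline differed by more than sampling noise (chi-square per degree of freedom 3.01 to 17.6). The fit was tested on simulated data. Sequences were read from GRCh38 and RefSeq. Named members were the 12 with the highest mean FPKM, the 4 largest rises and falls per comparison at an average log2 CPM of at least -1, those called in all 4 steps or in the difference between the enzalutamide steps, and those outside the clusters. Other genes were SLBP, NPAT, ASF1B, NASP, H2AZ1, H3-3B, H2AX and the largest changes of each list. Alternatives were DESeq2 1.42.0, other scaling, filters, fold threshold, samples, a replicate block and leaving out each library. Computation used Python 3.11.15, numpy 2.4.6, pandas 2.3.3, pysam 0.24.0 and matplotlib 3.10.9. Results for 1 gene are not reported here.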

Additional observations from a re-analysis of the deposited data

Results flagged for a closer look

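The members whose change from VCaP-CT-BR to the multiresistant line differed from their change between VCaP-CT and its enzalutamide-resistant derivative stood out by the test of that difference (edgeR quasi-likelihood test, adjusted p under 0.05), which called 49.7% of all tested genes. The difference is given as log2, positive where the former change was the more positive. Of the H1 and H4 genes it was 2.65 for H4C2, 2.5 for H1-4, 1.79 for H4C5, 0.90 for H4C8, 0.42 for H4C9 and 0.38 for H1-2. Of the H2A genes it was 1.82 for H2AC6 and 0.39 for H2AC25, and -0.80 for H2AC13 and -3.91 for H2AC14. Of the H2B genes it was 1.82 for H2BC4, 1.59 for H2BC7, 0.93 for H2BC5, 0.85 for H2BC12, 0.76 for H2BC21 and 0.70 for the pseudogene H2BC20P, and -1.0 for H2BC11. Of the H3 genes it was -1.30 for H3C10. H4C2 and H2BC7 held only 109 and 150 counts over all 15 libraries, so their values rest on few counts. H2AC14 had 3 counts over the VCaP-CT libraries, so its value depends on the prior count of the fit and is no bound. With groups of 3 libraries, single libraries were not examined as outliers.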

How the results depend on the processing

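Requiring a change of at least 2-fold beside the adjusted p left 16, 8, 4, 10 and 7 called members over the 5 comparisons, in the order described, and 8 in the difference between the enzalutamide steps. Of the second chromosome 6 block 2 members then remained lower in VCaP-CT-BR-ER. Genes of the fixed lists fell to 24, 22, 26, 7, 9 and 20 in the same order of comparisons. With at least 10 counts in every library, which tests fewer genes, 15 members were called in VCaP-CT against VCaP-T. Scaling at the 75th percentile gave a summed level of 680.0 CPM in VCaP-T. Without members outside the clusters and pseudogenes the sums were 134, 150.3, 153, 124 and 164 CPM in derivation order, and without the 3 members with the most counts 80.3, 120.7, 91.3, 104 and 105 CPM. Of 123 counts and sums recomputed under another setting, 98 stayed within 1.5 times or 1 SD, and so did all 225 with 1 library left out. Without 1 library, called members ranged from 24 to 27, 22 to 29, 13 to 19, 20 to 23, 18 to 22 and 17 to 20 over the comparisons, list genes from 138 to 145, 135 to 145, 136 to 143, 87 to 102, 98 to 119 and 114 to 124, members higher in the first block stayed at 9, those lower in the second ranged from 6 to 8, and the sums from 719 to 734, 607 to 638, 813 to 834, 342 to 363 and 422 to 437 CPM. Of 3720 recomputed changes of named members, 111 lost and 27 gained the call, and none that was called in either fit changed direction. Changes of direction among values called in neither fit were not counted. Scaling at the 75th percentile called 1 member higher and 17 lower in VCaP-CT-BR against VCaP-CT, in place of 3 and 16. Without VCaP-CT-BR replicate 2 or replicate 3, the 3 members called higher in VCaP-CT-BR were no longer called. Replicate numbers showed no pairing on average: deviations of same-numbered libraries correlated at -0.0055 over 13052 genes and those of others at 0.0028. Single same-numbered pairs ranged from -0.47 to 0.47, so this average cannot exclude pairing within a comparison. With a replicate block the called members numbered 25, 28, 17, 22, 22 and 19 in the same order, and no count moved by over 1.5 times.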
